A study of Mus musculus with 9 samples.

Results

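The sirtuins are the NAD-dependent deacylases of the cell, and all 7 mouse genes, Sirt1 to Sirt7, were examined across 9 T-cell lymphomas. They are 7 of the 18193 genes that have a probe set of their own. Members were found as all probe sets that the array annotation assigns to these genes, 9 of the 45101 on the array. Sirt5 had 3 probe sets and each of the other 6 genes had 1. All 9 lay above the filter on low signals.

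The study profiled lymphomas that keep their telomeres by alternative lengthening (ALT), a recombination-based process, beside telomerase-positive lymphomas that share their parental lines. The lymphomas arose in G3 Atm-/- TERT-ER mice given 4-hydroxytamoxifen (4-OHT). The 5 ALT tumours were then kept on vehicle in SCID recipients to passage 4. The 3 telomerase tumours had the same genotype and were kept on 4-OHT in SCID recipients, also to passage 4. The parental tumour, of the same genotype and labelled as telomerase-positive, gave 1 array and no passage number. All 9 tumours therefore lacked Atm, which encodes a DNA break-sensing kinase, and carried TERT-ER, in which the catalytic subunit of telomerase depends on 4-OHT. Drug, telomerase activity and ALT cannot be told apart in the comparison. SCID hosts have few lymphocytes but keep their other tissues. The labels number the tumours of a group without saying that each came from its own animal or line. The p-values therefore reflect the spread among the 5 ALT and 3 telomerase specimens, which may be technical.

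Sirtuins remove acetyl or longer acyl groups from lysines and use up NAD in each reaction, which ties them to the metabolic state of the cell. SIRT1, SIRT6 and SIRT7 act mainly in the nucleus, SIRT2 mainly in the cytosol, and SIRT3, SIRT4 and SIRT5 in mitochondria. SIRT3 is the main mitochondrial deacetylase, SIRT5 removes succinyl, malonyl and glutaryl groups, and SIRT4 has weak deacetylase activity and acts on glutamine and leucine breakdown. SIRT6 acts at telomeres and DNA breaks, and SIRT1 deacetylates p53 and FOXO factors.

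The arrays held RNA of other tissue in unequal amounts. Of 11 T-cell marker genes 9 had a probe set, all above the filter, with a summed signal of 26229 to 32717 in ALT tumours and 34450 to 37232 in telomerase tumours, and 38400 in the parental tumour. Of 12 pancreatic acinar genes 11 were measured, and their summed signal was 74240 to 154331 in ALT 1, 2 and 5 and telomerase 3, against 301 to 884 in the other 5 tumours. The 12 skeletal muscle genes summed to 265 to 364 in ALT tumours and to 9067, 625 and 297 in telomerase 1, 2 and 3, with 13629 in the parental tumour. Adipocyte genes, 4 of 6 measured, summed to 876 to 1770 in ALT tumours and to 1389 to 3759 in telomerase tumours, with 5174 in the parental tumour. Stromal genes summed to 1880 to 5379 in ALT tumours and to 2625 to 4427 in telomerase tumours. Myeloid genes summed to 5335 to 8802 and to 5206 to 7747. The ranges of the groups did not overlap for the T-cell list. They overlapped for the other lists above and for the B-cell and endothelial lists. In bulk RNA, fewer cells of a type and less RNA per cell cannot be told apart.

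Of the 9 probe sets 4 were lower in ALT tumours and 0 were higher, and they belonged to 2 mitochondrial members, Sirt5 and Sirt3. All 3 Sirt5 probe sets fell, with log2 changes of −0.89 to −1.42, and the Sirt3 probe set had −0.64. Across the array 18.8% of the 27022 probe sets tested passed the same threshold, 7.06% higher and 11.7% lower in ALT tumours. As 3 of the 4 calls are of 1 gene, they amount to 2 of the 7 sirtuin genes. Of all 12360 genes tested, each by its brightest probe set, 17.5% passed and 10% were lower. The median log2 change was −0.30 over the 9 sirtuin probe sets, 3 of them of Sirt5, and −0.02 over all probe sets tested. In 5 of the 9 (the 4 called and Sirt7) the ALT and telomerase values did not overlap, against 25.4% of all probe sets tested. Changes are in log2 of the signal plus 16, tested with limma and adjusted over all probe sets tested. Signals of different probe sets were not set against each other as levels.

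**Figure D1:**
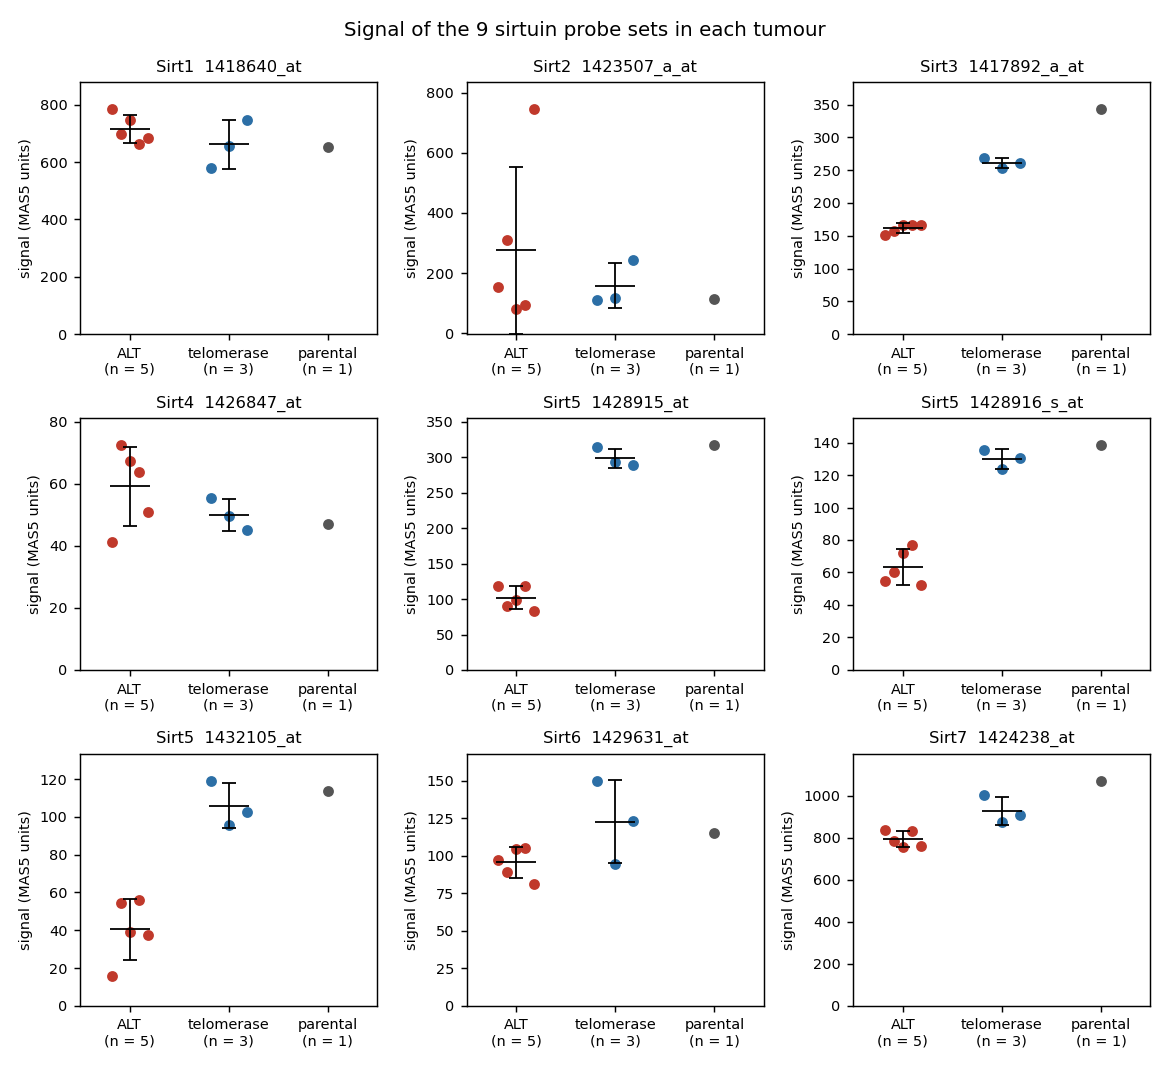
Signal in MAS5 units (vertical axes, which differ between panels) of each of the 9 sirtuin probe sets in the 5 ALT, 3 telomerase and 1 parental tumours. Points are tumours, and bars give the mean and SD of a group. The ALT points of Sirt3 and of all 3 Sirt5 probe sets lie below every telomerase point, and 1 ALT tumour stands at 745 for Sirt2.

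**Figure D2:**
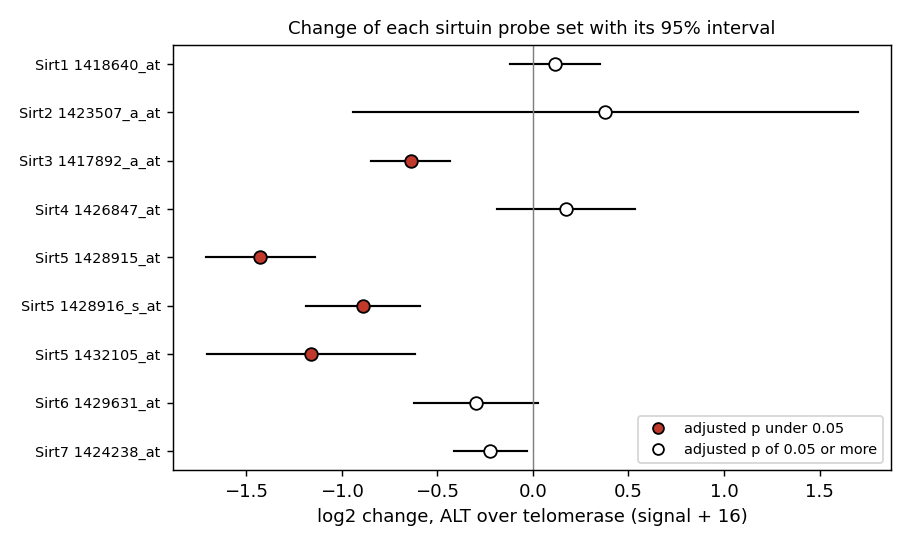
Log2 change of ALT over telomerase tumours (horizontal axis) for each sirtuin probe set, with the 95% interval of the limma fit (5 against 3 tumours). Filled points passed an adjusted p of 0.05. They are Sirt3 and the 3 probe sets of Sirt5, and the widest interval is that of Sirt2.

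The promoter windows of the 2 genes that fell are shown because their signals were lower in the same tumours. Each runs from 250 bases before to 50 bases after a RefSeq start site on GRCm38.p6, and all 7 genes matched the RefSeq table. Both strands were searched for AAGGTCA (bound by oestrogen-related receptors), the palindromic oestrogen receptor element, CACGTG (E-box), GGGCGG (GC box), CCGGAA (the ETS core) and GCGCATGCG (NRF1), and matches are in capitals. The first of these shares letters with the oestrogen receptor element, and the matches of both can overlap.
Sirt5, chr13:43365285-43365584, plus strand: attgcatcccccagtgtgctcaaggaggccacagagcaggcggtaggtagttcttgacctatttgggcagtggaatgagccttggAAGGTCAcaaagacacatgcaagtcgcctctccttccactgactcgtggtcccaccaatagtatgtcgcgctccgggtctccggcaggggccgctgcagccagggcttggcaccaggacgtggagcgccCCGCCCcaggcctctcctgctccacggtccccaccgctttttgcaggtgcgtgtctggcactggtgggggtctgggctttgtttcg
Sirt3 upstream start site, chr7:140882260-140882559, minus strand: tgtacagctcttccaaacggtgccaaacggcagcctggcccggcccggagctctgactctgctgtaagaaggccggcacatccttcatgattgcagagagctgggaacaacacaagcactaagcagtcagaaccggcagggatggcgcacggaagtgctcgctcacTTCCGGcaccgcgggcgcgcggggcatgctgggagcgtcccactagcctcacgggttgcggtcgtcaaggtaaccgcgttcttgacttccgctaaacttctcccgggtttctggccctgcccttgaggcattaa
Sirt3 downstream start site, chr7:140881820-140882119, minus strand: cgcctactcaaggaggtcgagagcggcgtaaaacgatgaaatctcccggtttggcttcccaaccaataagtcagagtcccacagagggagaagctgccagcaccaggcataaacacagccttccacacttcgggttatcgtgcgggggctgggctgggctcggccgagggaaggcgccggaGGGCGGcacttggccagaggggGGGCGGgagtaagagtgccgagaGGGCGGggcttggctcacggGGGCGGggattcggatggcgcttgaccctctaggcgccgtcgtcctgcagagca
The Sirt5 window held AAGGTCA, found in 4.72% of 32851 windows of the same length, and 1 GC box, found in 35.7%. The upstream Sirt3 window held 1 ETS core, found in 14.9% of windows, and the downstream one 4 GC boxes. AAGGTCA was in no other sirtuin window, and the oestrogen receptor element, found in 0.07% of all windows, in none. Sirt1 held 2 E-boxes, found in 7.15% of windows, and 7 GC boxes. Sirt6 (its first window) and Sirt7 held both NRF1, found in 1.75%, and ETS letters, while Sirt4 held 1 ETS core and Sirt2 1 GC box. A match describes these letters and not a bound site.

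Sirt5 is the mitochondrial desuccinylase and demalonylase, and its gene lies on chromosome 13. Its brightest probe set, 1428915_at, gave 119, 90.4, 99.4, 118 and 83.5 in ALT 1 to 5, against 314, 293 and 289 in telomerase 1 to 3. The highest ALT value was below the lowest telomerase value by more than the spread of either group, and the parental tumour, at 317, stood beside the telomerase tumours. The means were 102 ± 16 in ALT tumours (SD, n = 5) and 299 ± 13.6 in telomerase tumours (SD, n = 3), a ratio of 0.341 of ALT over telomerase. The log2 change was −1.42 (SE 0.129, 95% interval −1.71 to −1.14, limma adjusted p = 7.84e-05).

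The second Sirt5 probe set, 1428916_s_at, gave 54.9, 60.3, 72.3, 77.1 and 52.1 in ALT tumours and 136, 124 and 130 in telomerase tumours, with 138 in the parental tumour. Again all ALT values lay below all others. The suffix _s_at marks probes that can match more than 1 transcript. Its log2 change was −0.89 (SE 0.134, limma adjusted p = 0.00138). The dimmest probe set, 1432105_at, gave 15.6, 54.5, 38.9, 55.8 and 37.5 in ALT tumours and 119, 95.9 and 102 in telomerase tumours, with 114 in the parental tumour. ALT 1 was the lowest of the 5 and lay under the added constant of 16, so the size of this change depends on that constant. The log2 change was −1.16 (SE 0.245, limma adjusted p = 0.00855), and it was −1.48 with a constant of 1 and −0.71 with 64.

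Among 1451 genes with 3 probe sets tested, 40 (2.76%) had all 3 lower and 28 (1.93%) had all 3 higher in ALT tumours. Over the 9 tumours the probe sets correlated with Pearson r of 0.84 to 0.97. These are descriptions over shared arrays that fall into 2 clusters of values. Within the 5 ALT tumours r ran from −0.33 to 0.55, so the order of the ALT tumours differed between probe sets. ALT 4 was the highest of the 5 for 1428916_s_at and 1432105_at, and ALT 1 was the highest for 1428915_at and the lowest for 1432105_at.

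The probe sets differed in how far they fell. The log2 difference of 1428916_s_at from 1428915_at was −0.57 ± 0.21 in ALT tumours (SD, n = 5) and −1.11 ± 0.05 in telomerase tumours (SD, n = 3), which means that 1428916_s_at fell less, by 0.54 (SE 0.126, limma adjusted p = 0.0177 over 9995 pairs of probe sets of 1 gene, of which 18.1% passed). The exact permutation test of this difference gave p = 0.0357, two-sided, the smallest that 5 against 3 tumours allow. After adjustment over both Sirt5 pairs it did not pass. The limma call was lost without telomerase 1 or telomerase 2. For 1432105_at the difference from 1428915_at changed by 0.26 (95% interval −0.39 to 0.92, limma adjusted p = 0.622), and without ALT 1 both pairs passed.

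Sirt3, on chromosome 7, encodes the main deacetylase of the mitochondrial matrix. Its probe set gave 151, 158, 166, 167 and 167 in ALT 1 to 5, and 269, 253 and 260 in telomerase 1 to 3. The groups did not overlap, and their coefficients of variation, 4.29% in ALT and 2.90% in telomerase tumours, were the smallest of the 9 probe sets. The parental tumour, at 343, lay above all telomerase tumours as well. The means were 162 ± 6.94 in ALT tumours (SD, n = 5) and 261 ± 7.56 in telomerase tumours (SD, n = 3). The log2 change was −0.64 (SE 0.0937, 95% interval −0.85 to −0.43, limma adjusted p = 0.00118).

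Skeletal muscle transcripts were highest in the parental tumour and telomerase 1, which also had the highest Sirt3 signals. Without telomerase 1 the log2 change of Sirt3 was −0.62 (adjusted p = 0.0106). Whether muscle tissue had a part in the Sirt3 change was not tested. The calls of Sirt3 and of the 3 Sirt5 probe sets held whichever of the 8 tumours was left out, with adjusted p up to 0.0465 for 1432105_at without telomerase 1. The summed signal of the 9 T-cell marker genes was lower in every ALT tumour than in any telomerase tumour. Of these 9, 3 were called lower and 1 higher, and the others did not pass. Of all genes tested 10% were lower and 7.47% higher. The part of T-cell content in the Sirt3 and Sirt5 falls was not tested.

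Pancreatic transcripts divide both groups, and the direction of the Sirt3 and Sirt5 changes was the same on either side. Whether pancreatic tissue had a part in these changes was not tested. Within the 4 tumours without them (ALT 3 and 4, telomerase 1 and 2), all 3 Sirt5 probe sets passed, with log2 changes of −1.36, −0.68 and −0.97. Sirt3 just missed there (−0.60, adjusted p = 0.0505). Within the 4 tumours with them (ALT 1, 2 and 5, telomerase 3), 1428915_at passed (−1.44, adjusted p = 0.0273). Sirt3 (−0.66, adjusted p = 0.155), 1428916_s_at (−1.03, adjusted p = 0.0653) and 1432105_at (−1.27, adjusted p = 0.166) did not, in a fit that takes the spread of the ALT tumours for the single telomerase tumour as well.

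Sirt4, the mitochondrial member on chromosome 5 that restrains glutamate dehydrogenase, did not pass. It gave 41.3, 72.5, 67.4, 63.9 and 50.8 in ALT tumours, 55.4, 49.6 and 45.2 in telomerase tumours and 46.9 in the parental tumour. The ALT values lay on both sides of the telomerase values. The log2 change was 0.17 (95% interval −0.19 to 0.53, limma adjusted p = 0.518).

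The changes of the 3 mitochondrial sirtuins were set against each other as the log2 change of one minus that of another. Sirt5 minus Sirt3 was −0.79 with 1428915_at, −0.25 with 1428916_s_at and −0.52 with 1432105_at, so its size depended on the Sirt5 probe set (1428916_s_at and 1432105_at were added here after the values were seen). Sirt5 minus Sirt4 was −1.60, −1.06 and −1.33 with the same probe sets, and Sirt3 minus Sirt4 was −0.81. Each of these 7 differences gave p = 0.0357 in a two-sided exact permutation test over 5 and 3 tumours, the smallest possible, which is reached when the groups do not overlap. The groups did not overlap for 25.8% of all pairs of tested genes either, whether or not a gene of the pair separated them alone. All 7 differences involve Sirt5 or Sirt3, whose values alone separate the groups, so they are not independent of the calls above. Sirt5 and Sirt3 signals correlated over the 9 tumours (Pearson r of 0.94 for 1428915_at), which largely describes the split between ALT and other tumours.

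Among the nuclear members, Sirt1, on chromosome 10, deacetylates histones, p53 and FOXO proteins. It gave 785, 700, 747, 664 and 683 in ALT tumours, 579, 657 and 749 in telomerase tumours and 651 in the parental tumour. The ranges overlapped, and the log2 change was 0.12 (95% interval −0.12 to 0.35, limma adjusted p = 0.502).

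Sirt6, also on chromosome 10, encodes a histone H3 deacetylase of telomeric and damaged chromatin. It gave 97.5, 89.3, 105, 105 and 81.5 in ALT tumours, 150, 94.6 and 123 in telomerase tumours and 115 in the parental tumour. Telomerase 2 lay among the ALT values. The log2 change was −0.30 (95% interval −0.62 to 0.03, limma adjusted p = 0.197), −0.16 without telomerase 1 and −0.45 without telomerase 2.

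Sirt7, on chromosome 11, encodes a nucleolar deacetylase that acts on ribosomal RNA transcription. It gave 835, 784, 755, 833 and 761 in ALT tumours, against 1004, 876 and 907 in telomerase tumours and 1070 in the parental tumour. All ALT values lay below all others, but the gap between 835 and 876 was smaller than the SD of the telomerase tumours (66.6, n = 3). The log2 change was −0.22 (95% interval −0.41 to −0.03, unadjusted p = 0.0267, limma adjusted p = 0.102). When the telomerase group included the parental tumour it was −0.27 (adjusted p = 0.0297).

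Sirt2, the cytosolic tubulin deacetylase on chromosome 7, was the most variable member. It gave 153, 310, 80.8, 93.7 and 745 in ALT 1 to 5, 111, 118 and 245 in telomerase 1 to 3 and 114 in the parental tumour. The SD of 277 in ALT tumours was as large as their mean of 276, and the log2 change between groups was 0.38 (95% interval −0.94 to 1.70, limma adjusted p = 0.714). It was −0.08 without ALT 5 and 0.71 without telomerase 3. The 4 tumours with pancreatic acinar transcripts had the 4 highest Sirt2 signals, 153 to 745, against 80.8 to 118 in the other 5. Within those 4, Sirt2 followed the order of the summed acinar signal, from ALT 1 (74240) through telomerase 3 (97996) and ALT 2 (116882) to ALT 5 (154331). In the tumours without these transcripts the log2 change was −0.34 (adjusted p = 0.268). With the acinar sum as a covariate it was −0.15 (adjusted p = 0.840). The share of all probe sets that divide the same 4 and 5 tumours is not given here, so this pattern is not shown to be particular to Sirt2. Whether pancreatic tissue was the source of the Sirt2 signal was not tested.

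**Figure D3:**
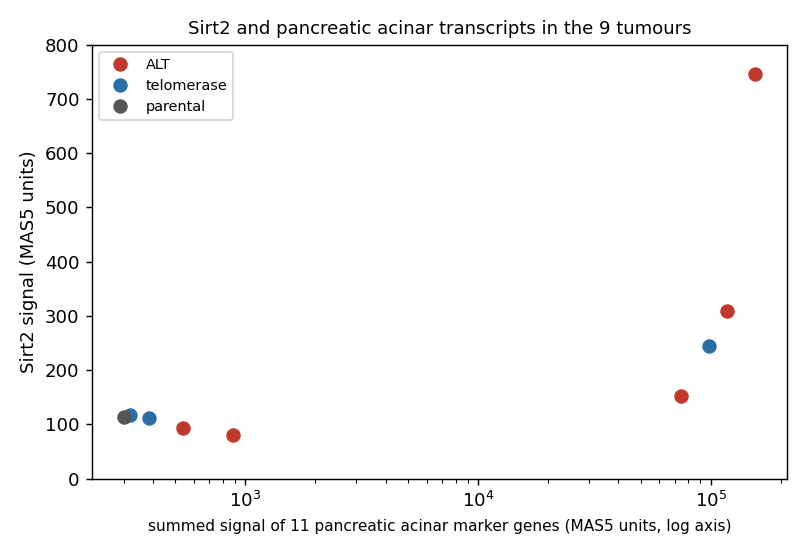
Sirt2 signal (vertical axis, MAS5 units) against the summed signal of 11 pancreatic acinar marker genes (horizontal log axis, MAS5 units) in each of the 9 tumours. The 5 tumours with little acinar signal lie between 80.8 and 118 for Sirt2, and the 4 tumours on the right between 153 and 745.

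The parental tumour lay nearer to the telomerase mean than to the ALT mean for all 9 sirtuin probe sets. The same held for 4725 of the 5067 probe sets called across the array (93.3%), so for the 4 called sirtuin probe sets this is close to the background. The share among probe sets that were not called is not given here. The pattern is therefore not shown to be particular to the sirtuins. For Sirt1, Sirt2, Sirt4, Sirt6 and 1432105_at of Sirt5 the parental value lay within the range of the telomerase tumours. For Sirt3, Sirt7 and the other 2 Sirt5 probe sets it was above that range. On the log2 scale it exceeded the telomerase mean by 0.37 for Sirt3, 0.20 for Sirt7 and 0.08 for those Sirt5 probe sets.

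The genes around each sirtuin were examined because chromosome 13, which carries Sirt5, had many lower genes. Of 447 genes tested there, 177 (39.6%) were lower and 9 higher in ALT tumours, and their median log2 change was −0.37, against −0.01 over all 12360 genes tested, of which 10% were lower. Sirt5 had the 12th lowest change of the 447. Each tumour was also centred on the other chromosome 13 genes, a setting chosen after the values were seen. The 3 Sirt5 probe sets then changed by −1.04, −0.50 and −0.78 (limma adjusted p = 0.000304, 0.0105 and 0.0250). This centring moved the median log2 change of all 27022 probe sets tested to 0.36, and 13040 of them passed. With so many calls these adjusted p-values are lenient, and a fall of Sirt5 beyond its chromosome was not tested.

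Of the 10 tested genes nearest to Sirt5, 5 fell and 0 rose. Nol7, a nucleolar protein gene and the next one tested after Sirt5, gave 2197 ± 49.2 in ALT tumours (SD, n = 5) and 3436 ± 58.8 in telomerase tumours (SD, n = 3), a log2 change of −0.64 (adjusted p = 0.000102). The other 4 were Tbc1d7, a subunit of the TSC complex (−1.01), Ranbp9 (−0.85), Mcur1, a regulator of mitochondrial calcium uptake (−0.72), and Tmem170b (−0.64). The 5 that did not pass had log2 changes of 0.19 to 0.37. These 5 were dim, with mean signals of 41.3 to 72.8 in ALT tumours and 28.8 to 57.6 in telomerase tumours. They include Gfod1, the nearest tested gene on the other side of Sirt5 (0.26, adjusted p = 0.350).

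On chromosome 7, with a median of 0.00 and 53 of 941 genes (5.63%) lower, the neighbours of Sirt3 divided differently. Psmd13, a subunit gene of the proteasome lid, lies head to head with Sirt3, with start sites 85 bases from the upstream Sirt3 start. It was 844 ± 90.8 in ALT tumours (SD, n = 5) and 1126 ± 119 in telomerase tumours (SD, n = 3), a log2 change of −0.41 (limma adjusted p = 0.0288). On the other side Ric8a had −0.12 (adjusted p = 0.554). Syce1, a synaptonemal complex gene, rose by 1.89 (adjusted p = 0.00328), and the remaining neighbours did not pass.

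Around Sirt6, 3 of 10 neighbours rose (Zfp938 by 1.36, Zfp433 by 0.67 and Hcfc2 by 0.62) and 0 fell, where 7.44% of the tested genes of chromosome 10 were higher and 8.1% lower. Around Sirt7, 3 fell (Pcyt2, −0.57; Aspscr1, −0.53; Alyref, −0.34) and 0 rose, where 9.1% of the tested genes of chromosome 11 were lower and 5.84% higher. Around Sirt2 and Sirt4 1 neighbour each fell, Lgals4 (−1.21) and Rplp0 (−0.19), with 5.63% lower on chromosome 7 and 7.56% on chromosome 5, and around Sirt1 0 passed.

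**Figure D4:**
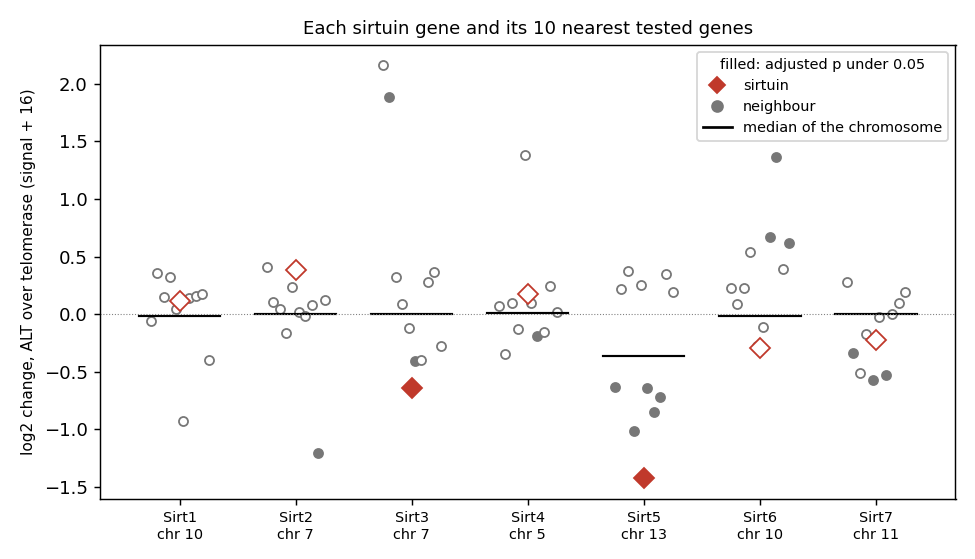
Log2 change of ALT over telomerase tumours (vertical axis) for each sirtuin (diamond) and the 10 tested genes nearest to it in chromosome order (circles, from lower to higher position). Filled symbols passed an adjusted p of 0.05, and lines mark the median of the chromosome, which lies at −0.37 for chromosome 13 and near 0 for the others.

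The genes whose signals followed Sirt5 and Sirt3 most closely over the 9 tumours were named by Pearson r. For Sirt5 (1428915_at) they were Hmgn1, a nucleosome-binding protein gene (r of 0.99), Pak1ip1 on chromosome 13 (0.99) and Ablim1, an actin-binding protein gene (0.99), with log2 changes of −0.40, −0.95 and −1.48. For Sirt3 they were Elof1, a transcription elongation factor gene (0.99), Rpl22l1, a ribosomal protein paralogue (0.98), and Wrnip1, a partner of the WRN helicase on chromosome 13 (0.98), with log2 changes of −0.24 (adjusted p = 0.0553), −0.41 and −0.68. All arrays share the split between ALT and other tumours, and within groups, over the 8 passaged tumours, r was 0.77 to 0.85 for the genes most like Sirt5 and 0.49 to 0.70 for those most like Sirt3. The genes were picked by r over 9 tumours that include these 8, so the within-group values are no separate support.

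Genes that supply or share the sirtuins' substrate NAD, other deacetylases and known sirtuin targets were read from 8 lists. Of the 103 distinct list genes tested, 8 rose and 16 fell, 23.3% in all, against 17.5% of all genes tested (7.47% higher and 10% lower). Without telomerase 1, 2 or 3 the number past the threshold was 12, 13 or 15 in place of 24. Over all genes tested it fell as well, to 1152, 1449 or 1591 in place of 2160. Of the 24 calls, 9 (2 higher and 7 lower) held whichever tumour was left out. Within tumours without pancreatic transcripts 8 list genes passed, beside 837 of all genes tested. When a gene's probe sets were averaged in place of taking the brightest, 13 of the 24 calls were kept. The median log2 change over the 103 genes was −0.06.

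In NAD synthesis 0 of 13 tested genes rose and 1 fell. This was Nadk, the kinase that turns NAD into NADP (log2 change −0.58, adjusted p = 0.0261), but a second Nadk probe set passed in the opposite direction and the mean of both was 0.07. The Nadk call was lost without ALT 1 or any 1 of the telomerase tumours. Nampt, the rate-limiting enzyme of NAD salvage, had 600 ± 112 in ALT tumours (SD, n = 5) and 616 ± 151 in telomerase tumours (SD, n = 3), a log2 change of −0.03 (adjusted p = 0.944). Of 16 other consumers of NAD 0 rose and 4 fell, 25% of those tested against 17.5% of all genes tested. Parp12, a mono-ADP-ribosyltransferase gene, had 59.9 ± 21.3 in ALT tumours (SD, n = 5) and 148 ± 18.8 in telomerase tumours (SD, n = 3), and fell by 1.15 (limma adjusted p = 0.00617). Parp8, on chromosome 13, fell by 1.46 (adjusted p = 0.0358), Parp1, the poly-ADP-ribose polymerase of DNA breaks, by 0.39 (adjusted p = 0.0338) and Parp14 by 0.35 (adjusted p = 0.0365, and 0.0629 for the mean of its probe sets). Without telomerase 1 or 2, 1 of the 4 passed, and without telomerase 3 or without ALT 1, 2 or 4, 2 passed.

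The zinc-dependent histone deacetylases do not use NAD. Of 11 tested 0 rose and 3 fell, 27.3% of those tested against 17.5% of all genes tested. All 3 calls held whichever tumour was left out. Hdac9 gave 14.0 ± 10.1 in ALT tumours (SD, n = 5) and 94.5 ± 47.0 in telomerase tumours (SD, n = 3), a log2 change of −1.85 (adjusted p = 0.00469) whose size depends on the added constant and was −1.04 for the mean of both its probe sets. Hdac6, the cytosolic tubulin deacetylase that shares that substrate with SIRT2, fell by 0.67 (adjusted p = 0.00331), and Hdac2, a nuclear class I enzyme, by 0.43 (adjusted p = 0.00647, and 0.0668 for the mean of its 3 probe sets).

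Among 17 tested targets of SIRT3, 3 rose and 2 fell, 29.4% of those tested against 17.5% of all genes tested. The counts were 2 and 2 without telomerase 1 and 1 and 1 without telomerase 2 or 3. Sod2, the mitochondrial superoxide dismutase activated by SIRT3, had 2384 ± 199 in ALT tumours (SD, n = 5) and 1469 ± 75.7 in telomerase tumours (SD, n = 3), and rose by 0.69 (adjusted p = 0.000543). Of 4 Sod2 probe sets tested 2 rose and 0 fell, and their mean changed by 0.21 (adjusted p = 0.139). Idh2, the mitochondrial NADP-dependent isocitrate dehydrogenase, fell by 0.63 (adjusted p = 0.00522), while its other probe set rose and the mean of both was −0.01. Got2 rose by 0.42 (adjusted p = 0.0162), and Acadl, the long-chain acyl-CoA dehydrogenase, fell by 0.97 (adjusted p = 0.0177). The mean of both Acadl probe sets, of which 1 was below the filter, changed by −0.47 (adjusted p = 0.104).

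Of 11 tested targets of SIRT4 and SIRT5, 1 rose and 4 fell, 45.5% of those tested against 17.5% of all genes tested. Without telomerase 1 the counts were 0 and 3. Sod1, the cytosolic superoxide dismutase and a desuccinylation target of SIRT5, gave 4595 ± 295 in ALT tumours (SD, n = 5) and 6482 ± 236 in telomerase tumours (SD, n = 3), a log2 change of −0.50 (adjusted p = 0.000811). The glycolytic kinase gene Pkm fell by 0.69 (limma adjusted p = 0.00562), and Mccc2, a subunit of the leucine-degrading carboxylase bound by SIRT4, fell by 0.77 (adjusted p = 0.0129), with −0.50 for the mean of its 3 probe sets (adjusted p = 0.113). Mccc2 lies on chromosome 13, as Sirt5 does. Idh2, named above, is on this list too, and Dlat, a pyruvate dehydrogenase subunit gene, rose by 0.44 (adjusted p = 0.0330), with 1 of its 3 probe sets lower and a mean of 0.03 over them (adjusted p = 0.887).

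Of 15 tested SIRT1 regulators and targets 2 rose and 0 fell. Beside this list and the next ones, 7.47% of all genes tested were higher and 10% lower. Foxo1, a forkhead factor deacetylated by SIRT1 and SIRT2, had 809 ± 59.8 in ALT tumours (SD, n = 5) and 538 ± 59.6 in telomerase tumours (SD, n = 3), and rose by 0.58 (adjusted p = 0.00382). Of its 3 probe sets tested 1 passed, and the mean of all 4 on the array changed by 0.23 (adjusted p = 0.175). Xrcc6, the Ku70 subunit, rose by 0.59 (adjusted p = 0.0297), a call lost without telomerase 1, 2 or 3 and without ALT 1, 2 or 3. Of 8 SIRT2 targets 1 rose, Foxo1, and 1 fell, the histone methyltransferase gene Kmt5a (log2 change −0.37, adjusted p = 0.0133, 0.0564 without telomerase 1 and 0.154 for the mean of its 4 probe sets, −0.24), and without ALT 4 the counts were 3 and 1. Of 19 SIRT6 and SIRT7 targets and partners 2 rose and 3 fell, counts that became 0 and 1, 1 and 0, or 0 and 2 when telomerase 1, 2 or 3 was left out, and 1 and 2 when ALT 4 was. Ubtf, the upstream factor of RNA polymerase I, rose by 0.38 (adjusted p = 0.0204), but the mean of both its probe sets changed by 0.11 (adjusted p = 0.454). Ldha, the lactate dehydrogenase repressed by SIRT6, fell by 0.27 (adjusted p = 0.0118). Ncl, which encodes nucleolin, fell by 0.21 (adjusted p = 0.0214), with −0.39 for the mean of its 5 probe sets, and Parp1, given above, is on this list as well.

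**Figure D5:**
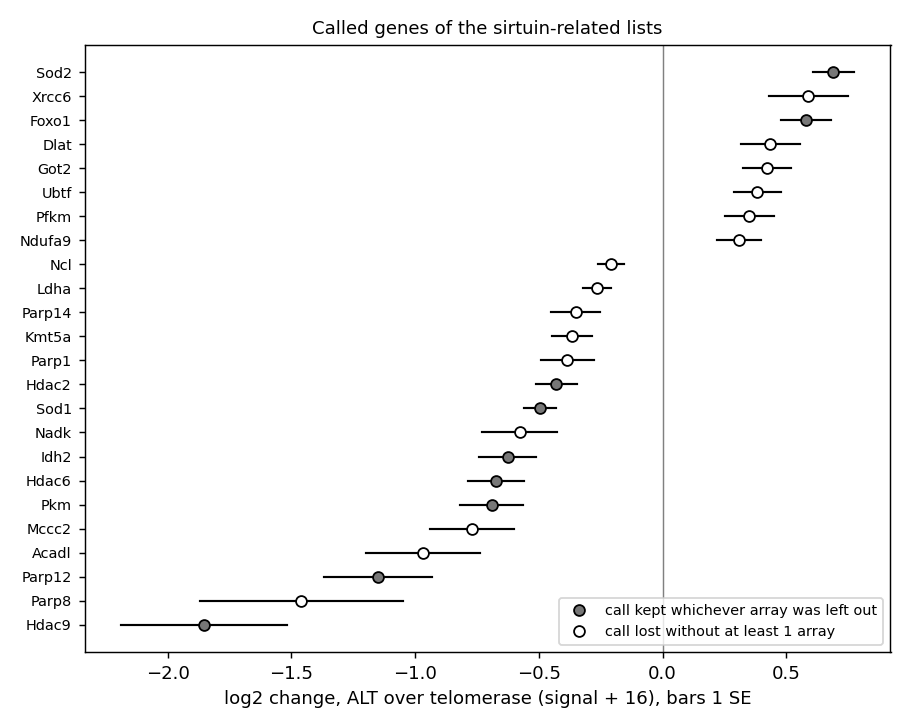
Log2 change of ALT over telomerase tumours (horizontal axis, bars 1 SE) for the 24 list genes past an adjusted p of 0.05, 8 higher and 16 lower. Filled points, 9 of 24, kept their call whichever of the 8 tumours was left out. Hdac9 lies furthest to the left at −1.85 and Sod2 furthest to the right at 0.69.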

How the data were processed

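Total RNA of 9 lymphomas was hybridised to a mouse expression array after biotin labelling. The authors deposited 1 linear intensity per probe set and array, made with MAS5 per the submitters' processing notes. No settings or scaling target of MAS5 were known here. Array medians lay between 39.8 and 43.8, and no further normalisation was applied. The table holds no detection calls, so precision rests on how many arrays there are.

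The platform annotation gave the genes: 34958 named 1 gene, 932 several and 9211 none. Gene order came from RefSeq on GRCm38.p6. Of 45037 probe sets that are not controls (64 were), the lowest 40% by mean log2(signal + 16) were left out (filter near a signal of 24.2), which left 27022. ALT (n = 5) and telomerase (n = 3) tumours were compared with limma 3.58.1 in R 4.3.3 (intensity trend, two-sided, Benjamini-Hochberg over all probe sets, threshold 0.05). For lists and neighbours the brightest probe set of each of 12360 genes was fitted in the same way. Differences between probe sets of 1 gene were fitted over 9995 pairs without the trend. The parental array was described only. The fit was tested on simulated arrays. Plots were drawn with matplotlib 3.10.9.

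The members and lists were chosen with earlier results of these data known. Named are all sirtuin probe sets, up to 4 called members of each list with the smallest p (the plot of list genes shows every call), called genes among the 5 neighbours on each side, and the 3 genes most correlated with each called sirtuin. Nampt, Gfod1 and Ric8a, which did not pass, and Dlat were named after their values were seen. Other settings changed the filter, constant, normalisation, treatment of the parental array, variance model, threshold, arrays left out, a block on replicate number, and the acinar split or covariate.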

Additional observations from a re-analysis of the deposited data

How the results depend on the processing

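The count of sirtuin probe sets lower in ALT tumours (4) stayed between 3 and 5 under every setting read for all members. The tumours with pancreatic transcripts, which hold a lone telomerase tumour, are not counted here. Under these settings 0 were higher, and leaving out single arrays gave 4 lower each time. Chromosome 13 centring was read for the Sirt5 probe sets only. In the probe set fit 0 of the 9 rose at an unadjusted p of 0.05 as well. The count of Sirt5 pairs that differed (1) was 0 with the replicate block, within tumours without and with pancreatic transcripts and in the exact permutation test, and 0 to 2 when single arrays were left out. The count of list genes past the threshold (24) was 7 with the replicate block and 8 within tumours without pancreatic transcripts. It was 12 to 24 when single arrays were left out. Of all genes tested, 982 passed with the replicate block and 837 within tumours without pancreatic transcripts, in place of 2160. The labels do not say that replicate numbers shared by the groups pair the tumours. Deviations of same-numbered tumours correlated at −0.29, −0.38 and −0.54. With so few pairs, and other tissue in unequal amounts, this cannot exclude a shared line or batch. With the replicate block the probe sets called across the array were 2709 in place of 5067, and the 4 sirtuin calls were kept. Directions turned only where no call was made or where probe sets of a gene disagreed. Sirt2 changed by −0.0795 to 0.712 when single arrays were left out, below 0 without ALT 5, by −0.15 with the acinar covariate and by −0.34 within tumours without pancreatic transcripts. Sirt1 changed by −0.0530 within tumours with them, and Nadk by 0.0688 with the mean of its probe sets. Called probe sets numbered 2843 without telomerase 1, 2415 within tumours without pancreatic transcripts and 865 within those with them. Quantile normalisation gave 53.9% lower among all called probe sets in place of 62.3%. The causes of these shifts were not tested. Signals near the added constant, as for 1432105_at and Hdac9, limit what sizes mean.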
